A study of Mus musculus with 4 samples.

Results

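Extraembryonic endoderm (XEN) cells were compared with embryonic stem (ES) cells of the mouse over 12422 non-control probe sets of the Affymetrix MG_U74Av2 array, to find which cell functions, apart from the genes that mark the 2 lineages, differ in the same direction in every XEN culture. The comparison used 4 of the 4 samples of the series, 1 array each. The ES sample was a culture of undifferentiated R1 cells kept on gelatin with leukaemia inhibitory factor (LIF). The XEN samples were 3 cultures of 2 lines. IM8A1-I and IM8A1-II are cultures of the IM8A1 line (PO strain) at passage 27. IM8A1-I grew on gelatin in a medium labelled 70% EMFI-CM, and IM8A1-II was kept for 4 days on plastic made for tissue culture, in RPMI 1640 medium and 20% FBS (fetal bovine serum). XEN1-3 is a line of the ICR strain at passage 18, on gelatin in the same 70% EMFI-CM. The ES culture was not replicated, and the labels name LIF for it and not for any XEN culture. Nothing in the labels says how the XEN cultures of a line were separated. The p-values measure only the spread between these 3 cultures. That spread mixes line, strain, passage, medium and substrate with technical variation, and these cannot be told apart.

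ES cells descend from the epiblast precursors of the blastocyst and divide fast. XEN cells descend from the primitive endoderm, which lays down the basement membrane called Reichert's membrane and forms the yolk sac layers that take up and degrade maternal proteins. A secreted protein enters the endoplasmic reticulum (ER) through a membrane channel, is folded, given disulfide bonds and sugar chains there, and travels in coated vesicles through the Golgi. Proteins taken up from outside go by endosomes to lysosomes, where an acid-driven set of hydrolases degrades them.

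Values are signals in arbitrary units. A signal of 27.3 units, the 40th percentile of all values, served as the background limit. It is not a detection call. Differences are given as log2(signal + 10.5 units) in XEN minus ES, with the standard error (SE) of limma's fit, and the added offset makes them understate the change of dim genes. A gene "rose" or "fell" where its probe set passed limma's moderated test at an adjusted p under 0.05 (Benjamini-Hochberg over 8583 tested probe sets). With 1 ES array that test assumes that ES cultures vary as the XEN cultures do. A second, test-free description asks whether a gene lay at least 2-fold from ES on the same side in all 3 XEN arrays. XEN values are always given in the order IM8A1-I, IM8A1-II and XEN1-3. If every array of a group was under the limit, a fold is stated only as a lower bound, from the brighter group's geometric mean divided by the limit. Numbers in square brackets after a count are the same count with IM8A1-I, with IM8A1-II and with XEN1-3 left out, in that order.

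The arrays were alike in overall signal, with medians of 46.9 to 52.3 units and 59.6% to 60.5% of probe sets at or above the limit. The ES array came from another chip lot than the XEN arrays, and the lot cannot be told apart from the cell type. The run record of XEN1-3 holds a message that fluid was not detected. The run record of IM8A1-II describes the sample as 8A1-DIFF and that of IM8A1-I as 8A1-GEL. The labels explain neither DIFF nor EMFI-CM, and whether IM8A1-II was a differentiated culture is not stated, so the counts without it are given beside the results. The labels were checked on lineage regulators. Pou5f1, a pluripotency factor, stood at 3194 units in ES and 2.6, 1.8 and 2.1 in XEN, and the endoderm factor Sox17 at 13.9 units in ES and 1895, 1711 and 1292 in XEN. Sox2 and Nanog were likewise under the limit in every XEN array, and Gata4 and Gata6 were bright in all of them. Another probe set of Gata6 lay about the limit, at 24.3 units in ES and 44.1, 16.4 and 34.5 in XEN (log2 difference 0.22), and a further one was higher (2.23). A dim probe set of Pou5f1 differed by -0.19. Those of Nanog (-4.01) and Sox17 (6.38) went the same way as the first. Of 30 tested pluripotency markers 23 fell and 0 rose, and of 43 tested endoderm markers 29 rose and 0 fell. Lineage markers were left out when genes were chosen to be named, but 6 tested ones also belong to a function list and count in it (4 rose, Dkk1, F3, Plat and Thbd, and 2 fell, Dppa3 and Phc1). Among markers of other cells, 1 of 15 fibroblast genes, 1 of 9 trophoblast genes and 0 of 12 germ layer genes fell and none rose (at an unadjusted p under 0.05, 5, 3 and 4 were lower and 1 was higher in each list). Their summed signals were 1600 units in ES and 1069 to 1230 in XEN for fibroblast, 1297 and 523 to 607 for trophoblast, and 1977 and 952 to 1432 for germ layer markers, and their part in the results was not tested. In whole cultures, fewer cells of a type and less RNA per cell cannot be told apart.

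After 1 probe set was taken per gene, 364 of 6351 genes rose (5.73%) and 332 fell (5.23%). Each of the 364 rises and 331 of the 332 falls came to 2-fold or more in every XEN array. In 105 of the rises ES was under the limit, and in 113 of the falls every XEN array was. Such genes passed the filter only through the brighter group. By size alone, 512 genes (8.06%) lay at least 2-fold above ES in all 3 arrays and 509 (8.01%) below it. At any size, 2402 genes (37.8%) were above and 2241 (35.3%) below ES in all 3, and the median difference over all genes was 0.03. Over probe sets 479 rose [190, 236 and 784] and 433 fell [179, 212 and 716], which were 5.58% and 5.04% of those tested, and 697 (8.12%) and 665 (7.75%) were at least 2-fold above or below ES in all 3 arrays. Leaving out an IM8A1 culture therefore cut the calls, and leaving out XEN1-3, which leaves 1 line, raised them. With values raised to the limit (a floor at the limit) 238 rose and 537 fell. The calls reached well beyond lineage markers: 108 of the genes that rose and 94 of those that fell belong to the 47 lists of cell functions and to no marker list, 29 and 25 to the lists of lineage or other cell markers, and 227 and 213 to no list.

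Genes of the secretory route and of the lysosome lay mostly above ES, and genes of nucleotide synthesis, ribosome assembly, DNA replication, chromatin and the proteasome mostly below it. Of the 47 lists, 17 had a median of at least 0.5 log2 in size, a limit set after the values were seen: 9 above ES and 8 below. In none of the 17 did an alternative setting turn the sign. The lists were chosen with earlier results of these data known, so the counts describe them and are no independent evidence of direction.

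**Figure D1:**
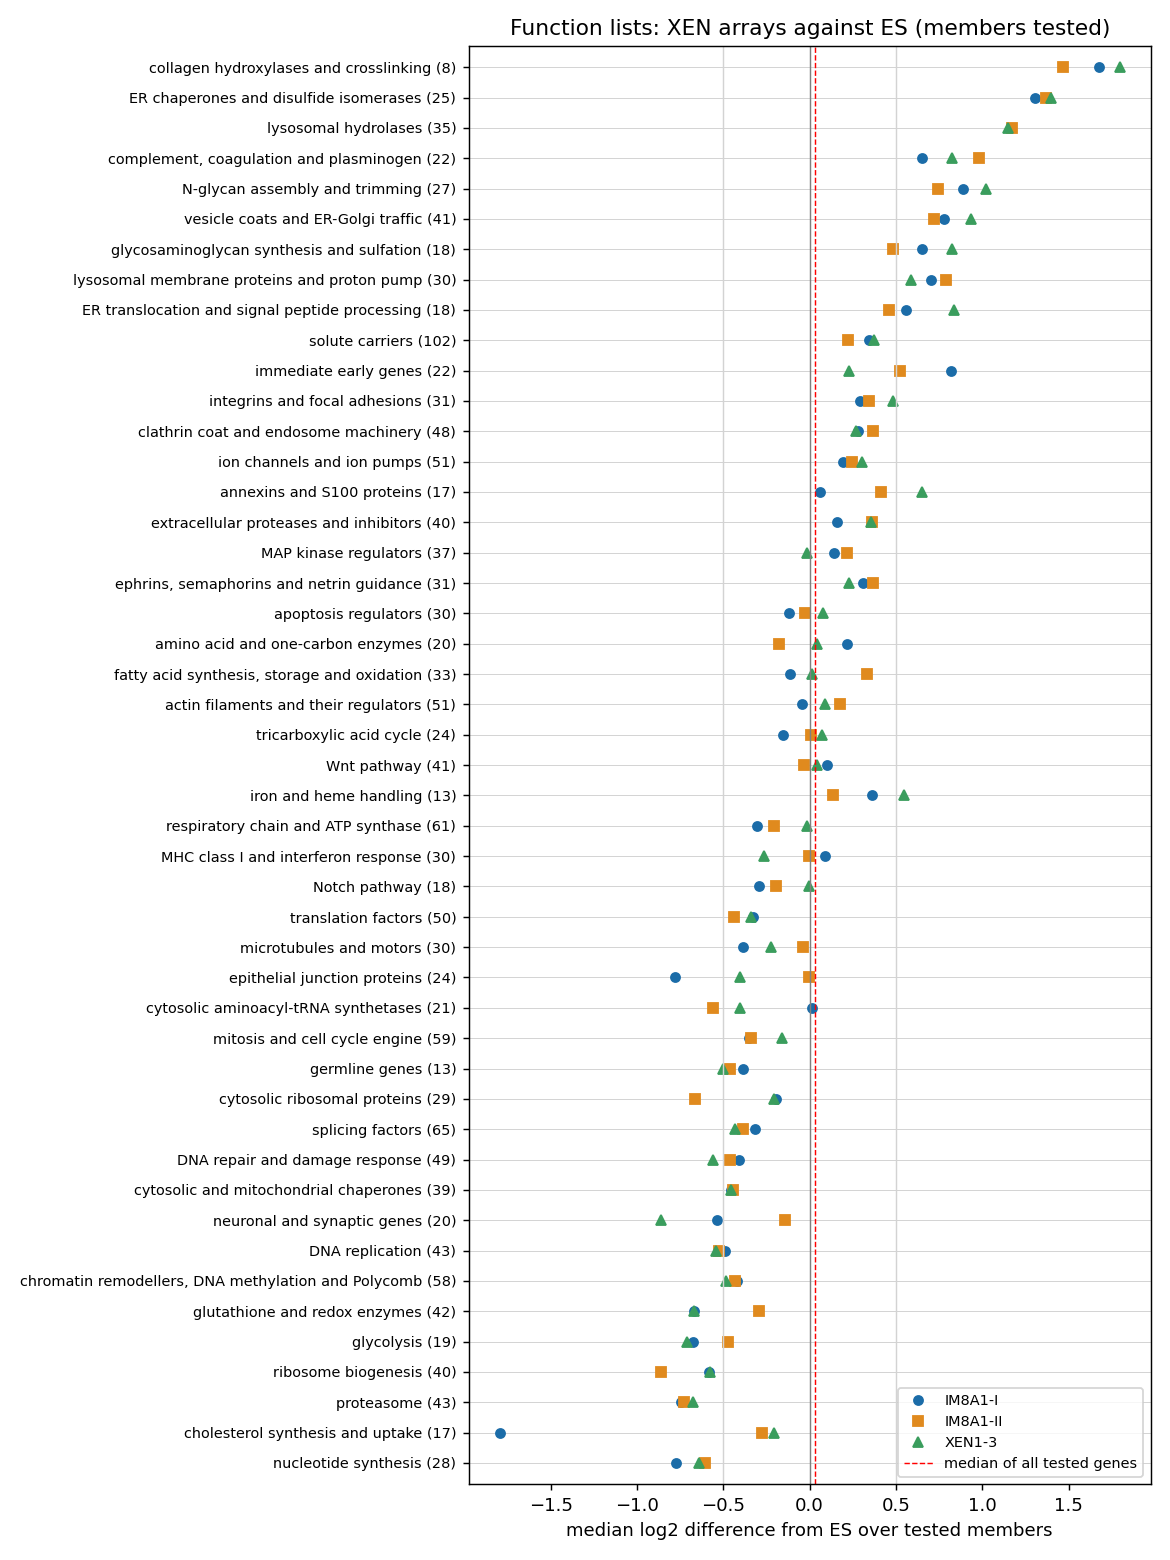
Median log2 difference from ES of each of the 47 function lists, with 1 point per XEN array and pale lines at 0.5 in size on either side. The ER chaperones lie near 1.4 in all 3 arrays and the proteasome near -0.7, while the cholesterol list lies at -1.79 in IM8A1-I and at -0.27 and -0.21 in the other arrays.

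**Figure D2:**
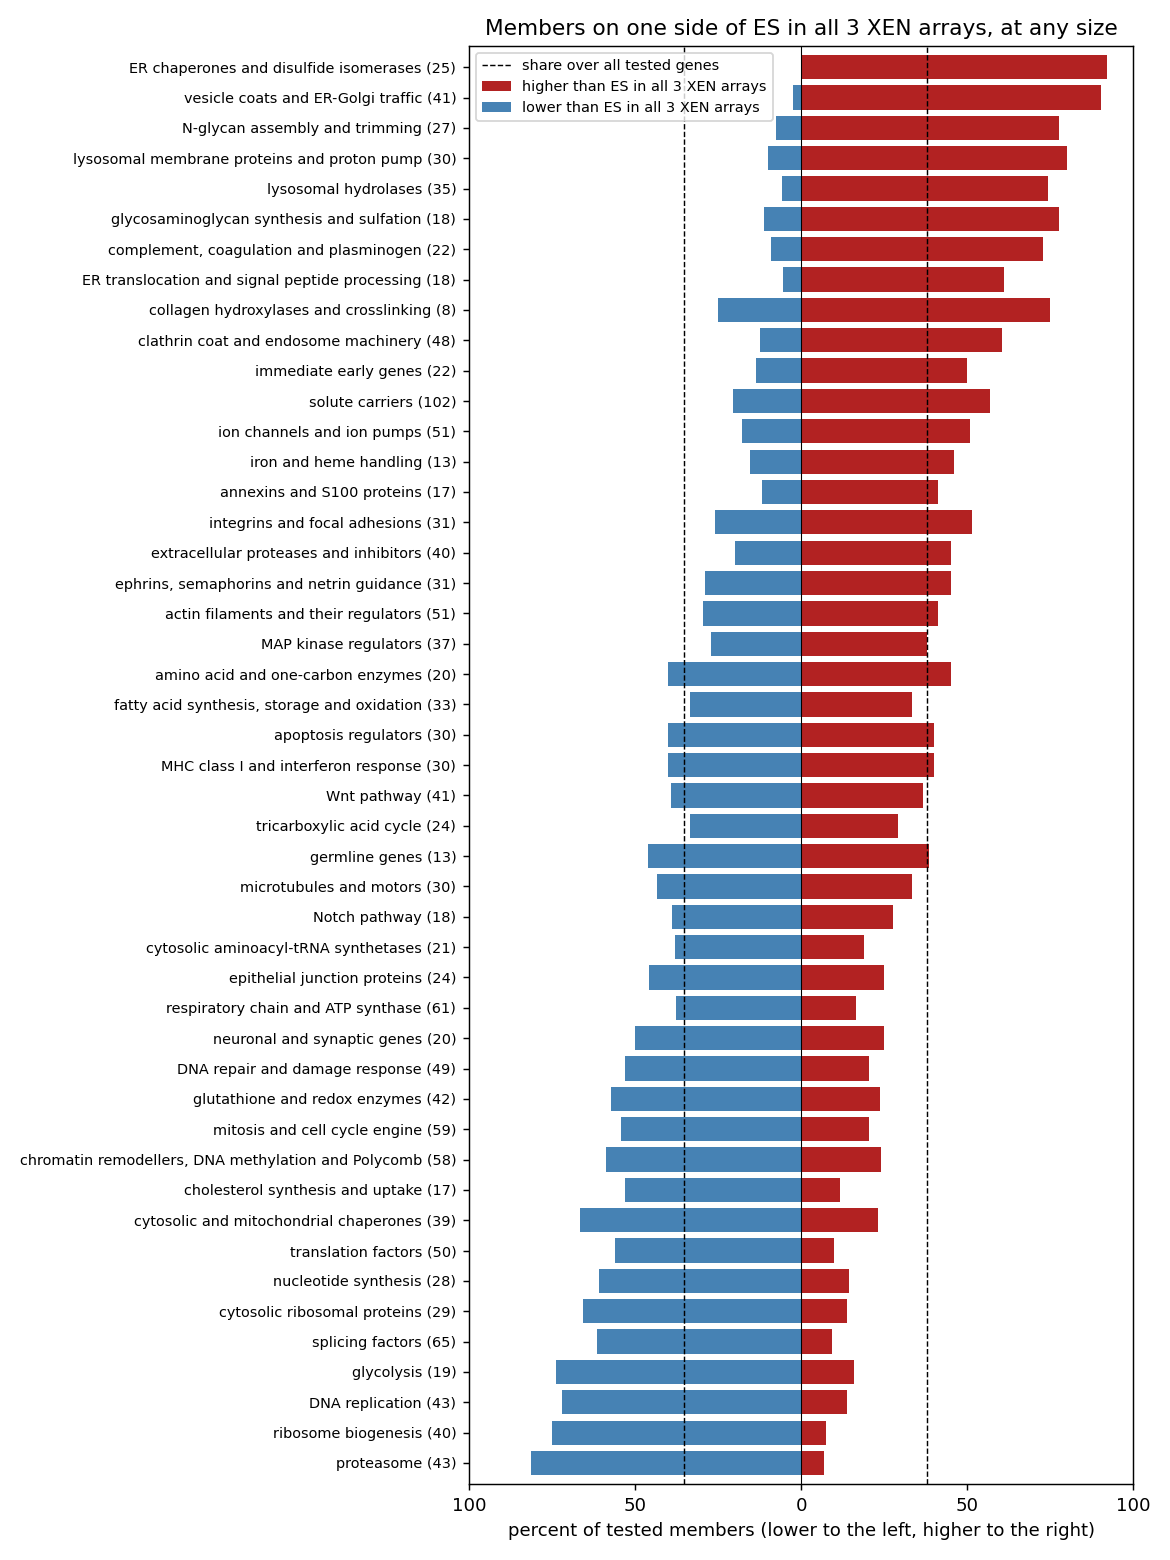
Share of each function list's tested genes that lay above ES (to the right) or below it (to the left) in all 3 XEN arrays, at any size. Over all genes tested these shares are 37.8% and 35.3%; the ER chaperones stand at 23 of 25 above and the proteasome at 35 of 43 below.

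Many genes of the protein-folding machinery of the ER rose. Of 27 genes on the array 25 were tested, and 12 rose [5, 6 and 18] and 0 fell (without adjustment, 20 were higher and 0 lower at p under 0.05). In all 3 arrays 15 were at least 2-fold above ES and 23 were above it at any size, with a median of 1.49. Pdia5, a protein disulfide isomerase, had 74.1 units in ES and 886, 656 and 414 in XEN (log2 difference 2.90 ± 0.45, adjusted p = 0.0189). Dnajb11, a co-chaperone of BiP, had 120.1 units in ES and 693, 683 and 492 in XEN (log2 difference 2.26 ± 0.31, adjusted p = 0.0144). Pdia3, the isomerase that acts on glycoproteins, stood at 369.98 units in ES and 1545, 1525 and 1449 in XEN, so the XEN arrays differed from one another far less than from ES (log2 difference 1.99 ± 0.25, adjusted p = 0.0109). Xbp1, the transcription factor of the unfolded protein response, measured 200.4 units in ES and 950.2, 874 and 794 in XEN (log2 difference 2.06 ± 0.27, adjusted p = 0.0121). Hspa5, which encodes the chaperone BiP, and the isomerase gene Pdia6 were chosen after their values were seen because their promoters are printed. Hspa5 had 1041 units in ES and 4433, 3936 and 3476 in XEN (log2 difference 1.91 ± 0.26, adjusted p = 0.0139), and Pdia6 had 558 units in ES and 1439.96, 1541 and 1790.2 in XEN (log2 difference 1.49 ± 0.27, adjusted p = 0.0271). The call of Pdia5 was lost with a floor at the limit. The call of Pdia6 was lost without IM8A1-I or IM8A1-II.

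The ER stress response element (ERSE) is the site through which Xbp1 and Atf6 act on chaperone genes. Its letters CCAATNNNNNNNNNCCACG were searched on both strands from 250 bases before to 50 after each start in RefSeq promoters of GRCm38.p6. They occur in 7 of the 23 tested ER chaperone genes with a promoter in the table, in 2 of the 11 of these that rose, in 0.215% of 5111 tested genes (11 genes) and in 0.119% of all 32851 promoters. Its last 5 letters can overlap an E-box. The promoters of both risen genes are shown because they hold this element in capitals: Hspa5 at chr2:34771840-34772139 (plus strand, match starting 65 bases before the start) and Pdia6 at chr12:17266339-17266638 (plus strand, 98 bases before).
Hspa5: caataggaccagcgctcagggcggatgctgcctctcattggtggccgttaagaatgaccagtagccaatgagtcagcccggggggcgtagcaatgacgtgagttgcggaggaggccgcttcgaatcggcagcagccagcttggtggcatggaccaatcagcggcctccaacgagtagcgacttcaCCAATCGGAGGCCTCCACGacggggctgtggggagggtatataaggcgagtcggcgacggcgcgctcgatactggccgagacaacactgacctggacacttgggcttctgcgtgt
Pdia6: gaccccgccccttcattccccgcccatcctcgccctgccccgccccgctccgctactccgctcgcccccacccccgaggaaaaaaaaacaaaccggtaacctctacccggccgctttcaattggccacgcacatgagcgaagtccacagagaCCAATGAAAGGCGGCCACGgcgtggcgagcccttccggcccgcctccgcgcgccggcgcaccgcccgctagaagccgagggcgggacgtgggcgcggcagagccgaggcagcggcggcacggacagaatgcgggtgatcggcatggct
The match is a description of the letters and does not show binding.

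Collagen-modifying enzymes of the ER had a median of 1.62, but the list is small. Of 8 tested genes 5 rose [3, 4 and 5] and 1 fell [0, 0 and 1]. Serpinh1, the collagen chaperone, is among the largest rises described further on. P4ha1 and P4ha2 encode the catalytic subunits of collagen prolyl hydroxylase. P4ha1 stood at 170.03 units in ES and 1765, 1779.5 and 1819 in XEN, nearly the same in all 3 XEN arrays (log2 difference 3.32 ± 0.25, adjusted p = 0.00309), and P4ha2 at 163 units in ES and 3568, 2344 and 2039 in XEN (log2 difference 3.90 ± 0.37, adjusted p = 0.00609). The member that fell was Pcolce, an extracellular enhancer of procollagen cleavage, at 240.5 units in ES and 55.6, 64.1 and 22.9 in XEN (log2 difference -2.20 ± 0.50, adjusted p = 0.0497). The call of Pcolce was lost without IM8A1-I or IM8A1-II, with each line counted once, with a floor at the limit and under another offset, filter or variance model.

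At the ER entrance, 3 of 18 tested genes of translocation and signal peptide cleavage rose [0, 0 and 4] and 0 fell, 11 lay above ES in all 3 arrays, and the median was 0.62. Tram1, which helps chains into the membrane, stood at 333 units in ES and 899.9, 1169.5 and 1206 in XEN (log2 difference 1.67 ± 0.29, adjusted p = 0.0257). Sec62 and Sec63, partners of the Sec61 channel, had 59.8 units in ES and 186, 219.8 and 220.03 in XEN for Sec62 (adjusted p = 0.0234) and 23.8 units in ES and 71.3, 76.2 and 79.5 in XEN for Sec63 (adjusted p = 0.0414). Other probe sets of Sec62 did not pass, with log2 differences of 0.78 and -0.26. The call of Sec62 was lost without IM8A1-I or IM8A1-II. The call of Tram1 was lost without IM8A1-I or IM8A1-II and with a floor at the limit. The call of Sec63 was lost without IM8A1-I or IM8A1-II, with each line counted once and under another filter.

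Genes of sugar chain assembly lay above ES in most cases. Of 27 tested 5 rose [1, 1 and 8] and 1 fell [0, 0 and 1], 21 lay above ES in all 3 arrays and the median was 0.85. Fut8, which adds the core fucose, had 61.5 units in ES and 737, 981 and 694 in XEN (log2 difference 3.48 ± 0.31, adjusted p = 0.00532). Mgat2, which starts an antenna of complex chains, had 49.1 units in ES and 219, 178 and 149.9 in XEN (log2 difference 1.68 ± 0.31, adjusted p = 0.0304), and Ganab, a trimming glucosidase named after its values were seen, had 439.9 units in ES and 1552, 1219 and 1032 in XEN (adjusted p = 0.0418). Man1a2, a trimming mannosidase, passed with 1.4 units in ES and 27.4, 27.6 and 25.2 in XEN (adjusted p = 0.0459), so that its XEN signals lay about the limit. Pmm1, a phosphomannomutase that feeds mannose into the route, fell, with 894 units in ES and 257, 232 and 335 in XEN (log2 difference -1.68 ± 0.31, adjusted p = 0.0296). The calls of Mgat2 and Pmm1 were lost without IM8A1-I or IM8A1-II, with each line counted once and with a floor at the limit. The call of Ganab was lost without IM8A1-I or IM8A1-II, with each line counted once, with a floor at the limit and under another filter, scaling or variance model. The call of Man1a2 was lost whichever XEN array was left out, with each line counted once, with a floor at the limit and under another offset.

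Nearly all vesicle coat and ER-Golgi traffic genes lay above ES. Of 41 tested genes 37 lay above ES in all 3 arrays and 1 below, against 37.8% and 35.3% of all genes, 6 rose [3, 3 and 10], 0 fell, and the median was 0.79 (without adjustment, 23 were higher and 0 lower at p under 0.05). Kdelr3, a receptor that returns escaped ER proteins, had 111 units in ES and 2158, 1299 and 1572 in XEN (log2 difference 3.77 ± 0.35, adjusted p = 0.00594). Arcn1, a COPI coat subunit, had 44.6 units in ES and 461, 405 and 554 in XEN (log2 difference 3.12 ± 0.30, adjusted p = 0.00594), while a dim second probe set of Arcn1 differed by 0.69 and did not pass. Tmed3, a p24 cargo protein, had 53.7 units in ES and 582, 563 and 465 in XEN (log2 difference 3.08 ± 0.28, adjusted p = 0.00565). Smaller steps were measured for Surf4, a cargo receptor, with 723 units in ES and 1798, 1741 and 1969 in XEN (log2 difference 1.33 ± 0.25, adjusted p = 0.0304), and for the COPI subunit Copa, named after its values were seen, with 617 units in ES and 1748, 1594 and 1469 in XEN (adjusted p = 0.0313). The calls of Surf4 and Copa were lost without IM8A1-I or IM8A1-II and with each line counted once. Among 18 tested genes of glycosaminoglycan synthesis 1 rose (5.56%, near the 5.73% of all genes) [1, 1 and 2] and 0 fell. The gene that rose was Hs3st1, and the list median of 0.77 dropped to 0.48 with dim members set at their bounds.

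Lysosomal enzymes also lay above ES. Of 35 tested hydrolases (38 on the array) 11 rose [5, 4 and 20] and 1 fell [0, 0 and 2], 14 were at least 2-fold above ES in all 3 arrays and 26 were above it at any size, and the median was 1.24. With values raised to the limit 5 rose. Lgmn, the asparaginyl endopeptidase, had 115 units in ES and 2601, 3802 and 1899 in XEN (log2 difference 4.41 ± 0.42, adjusted p = 0.00594). Ctsl, the cysteine protease cathepsin L, had 704 units in ES and 3735, 5207 and 3195 in XEN (log2 difference 2.47 ± 0.34, adjusted p = 0.0137), and Ctsc, the dipeptidyl peptidase, had 26.5 units in ES and 216, 391 and 232 in XEN and was at least 9.88-fold higher (adjusted p = 0.0139). Other, dim probe sets of Ctsc differed by 0.99 and 0.96 and did not pass. Ctsa, the protective protein of galactosidase, and Ctsd, an aspartic protease, were named after their values were seen. Ctsa had 237 units in ES and 826, 831 and 779 in XEN (log2 difference 1.73 ± 0.25, adjusted p = 0.0163), and Ctsd had 582 units in ES and 1343, 1391 and 1405 in XEN (log2 difference 1.23 ± 0.25, adjusted p = 0.0347). The 1 member that fell was Gusb, the beta-glucuronidase, at 79 units in ES and 12.6, 22.2 and 12.5 in XEN (at least 2.89-fold lower, adjusted p = 0.0431). The calls of Ctsl and Ctsc were lost with a floor at the limit. The call of Ctsa was lost without IM8A1-I or IM8A1-II. The call of Ctsd was lost without IM8A1-I or IM8A1-II and with each line counted once. The call of Gusb was lost without IM8A1-I or IM8A1-II, with each line counted once and under another offset or filter.

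Genes of the lysosomal membrane and its proton pump lay above ES in most cases. Of 30 tested genes 6 rose [1, 3 and 7] and 0 fell, 24 lay above ES in all 3 arrays, and the median was 0.67. Atp6v0a1 and Atp6ap1 belong to the proton pump, and had 54.4 units in ES and 333, 339 and 421 in XEN for Atp6v0a1 (log2 difference 2.52 ± 0.29, adjusted p = 0.00889) and 151 units in ES and 532, 539.9 and 742 in XEN for Atp6ap1 (log2 difference 1.91 ± 0.31, adjusted p = 0.0216). Lamp1 and Lamp2, the main glycoproteins of the membrane, are abundant in both cell types. Lamp1 had 1777 units in ES and 5459.8, 5039 and 4576 in XEN (log2 difference 1.49 ± 0.24, adjusted p = 0.0222), and Lamp2, named after its values were seen, had 207 units in ES and 509.6, 736 and 689 in XEN (log2 difference 1.58 ± 0.32, adjusted p = 0.0348). A dimmer probe set of Lamp2 differed by 0.61 and did not pass. The tetraspanin Cd63 had 866 units in ES and 2346, 2903 and 2885 in XEN (log2 difference 1.63 ± 0.26, adjusted p = 0.0216). The calls of Atp6ap1 and Lamp2 were lost without IM8A1-I or IM8A1-II and with a floor at the limit. The call of Lamp1 was lost without IM8A1-I and under another filter. The call of Cd63 was lost without IM8A1-I. On the entry side of the route, of 48 tested clathrin coat and endosome genes 0 rose [0, 0 and 4] and 1 fell, although 29 lay above ES in all 3 arrays (without adjustment, 10 were higher and 4 lower at p under 0.05). The member that fell was Cavin1, a caveola protein, at 201 units in ES and 47.1, 56.7 and 62.3 in XEN (log2 difference -1.69 ± 0.29, adjusted p = 0.0249), lost without IM8A1-I or IM8A1-II, and a dim second probe set of it differed by 0.70.

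The E-box CACGTG is the core of the element bound by Tfeb, a factor that acts on lysosomal genes. It reads the same on both strands. It was found in 10 of 31 tested hydrolase genes with a promoter in the table and in 8 of 22 membrane and pump genes, against 12.4% of 5111 tested genes and 7.15% of all 32851 promoters. The highest shares among the other lists were in small ones: 3 of 9 germline genes, 4 of 14 tRNA synthetases and 3 of 11 iron and heme genes. Other lists had lower shares, among them 1 of 36 redox genes, 2 of 27 nucleotide synthesis genes and 1 of 22 sugar chain genes. Of those that rose it was in 5 of 9 hydrolases and in 1 of 6 of the others. The cyclic AMP response half-site TGACGTG, which can overlap an E-box and was searched on both strands, was in 3 of the 23 ER chaperone genes, 0 of the 31 hydrolases, 1 of the 22 membrane and pump genes and 6 of the 37 vesicle coat genes, and in 3.56% of the tested genes. A GATA site, AGATAAG on either strand, was in 0 of 23, 0 of 31 and 1 of 22, and in 2.27% of the tested genes. The promoters of Lamp1, with 4 matches from 61 to 15 bases before the start at chr8:13158911-13159210 (plus strand), and of the second start of Ctsa, with matches 12 bases before and 6 after the start at chr2:164833523-164833822 (plus strand), are shown because they hold several copies, in capitals.
Lamp1: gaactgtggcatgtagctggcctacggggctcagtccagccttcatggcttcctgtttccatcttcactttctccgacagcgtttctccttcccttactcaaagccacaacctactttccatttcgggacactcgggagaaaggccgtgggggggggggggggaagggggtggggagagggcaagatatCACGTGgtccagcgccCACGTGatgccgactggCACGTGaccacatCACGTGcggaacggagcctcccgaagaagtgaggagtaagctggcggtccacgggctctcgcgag
Ctsa: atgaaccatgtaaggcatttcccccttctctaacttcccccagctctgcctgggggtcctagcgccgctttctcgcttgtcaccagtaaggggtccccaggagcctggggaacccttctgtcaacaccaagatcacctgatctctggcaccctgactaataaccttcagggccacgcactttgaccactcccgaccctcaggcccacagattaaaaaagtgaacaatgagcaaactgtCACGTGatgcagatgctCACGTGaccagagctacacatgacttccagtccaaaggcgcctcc
Both genes rose, and the letters do not show binding.

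**Figure D3:**
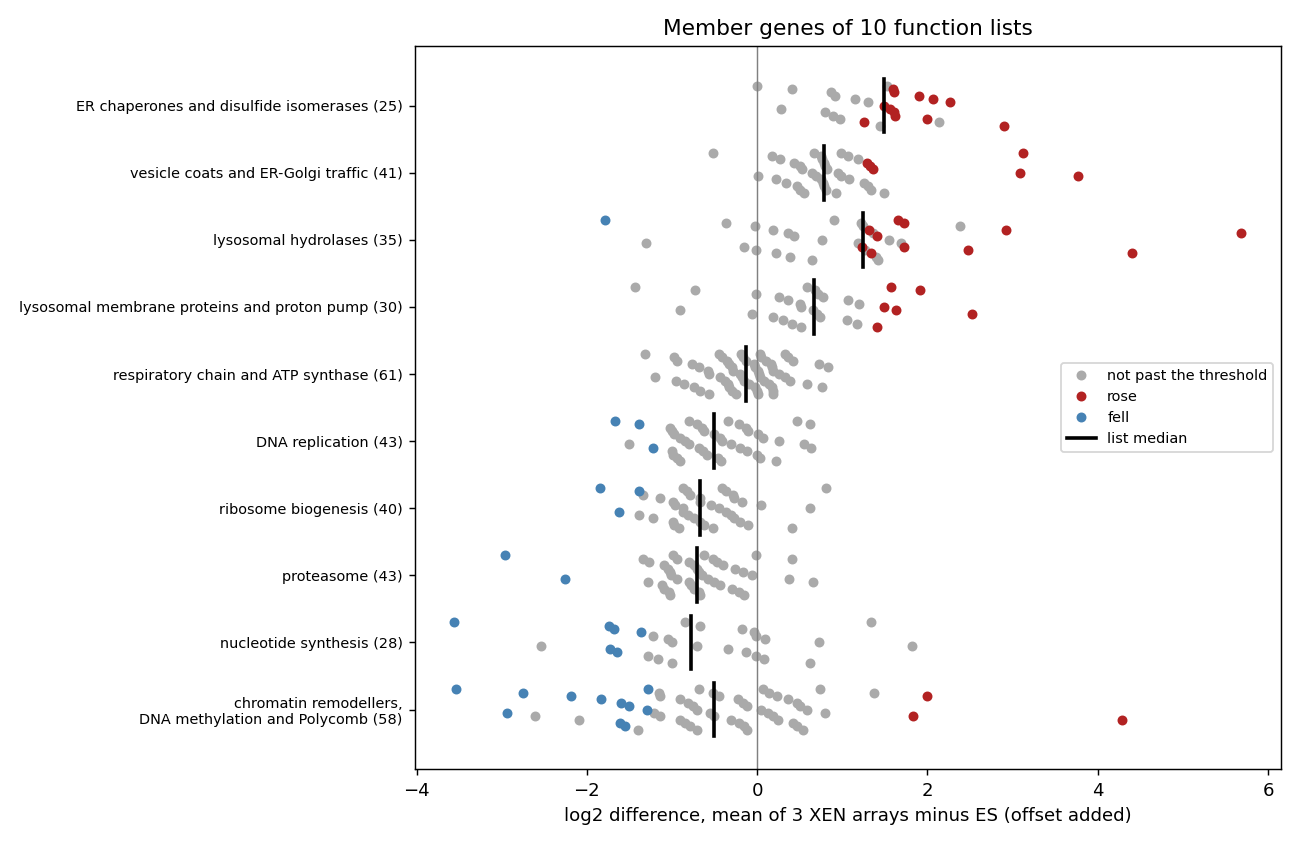
Log2 difference of each tested member of 10 function lists (mean of the 3 XEN arrays minus ES), 1 point per gene, coloured by whether it rose, fell or was not called. Most ER chaperones and vesicle coat genes lie above 0 and most proteasome and ribosome biogenesis genes below it, while respiratory chain genes lie around a median of -0.14 with 0 called.

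Genes of the proteasome, which degrades ubiquitinated proteins, lay below ES. Of 43 tested genes 35 lay below ES in all 3 arrays and 3 above, against 35.3% and 37.8% of all genes, and the median was -0.70. In this list 2 fell (4.65%, near the 5.23% of all genes) and 0 rose (20 were lower and 0 higher at an unadjusted p under 0.05). Psmd5, an assembly chaperone of the regulatory particle, had 929 units in ES and 162, 179.7 and 220.3 in XEN (log2 difference -2.26 ± 0.29, adjusted p = 0.0126). Psmb8, a subunit of the immunoproteasome, had 106 units in ES and 7.9, 2.9 and 3.0 in XEN (at least 3.87-fold lower, adjusted p = 0.0150). Most members were thus below ES in every XEN array without passing the test. In the list of cytosolic and mitochondrial chaperones, 26 of 39 lay below ES in all 3 arrays. Of the 39, 3 rose (7.69%) [0, 0 and 3] and 2 fell (5.13%) [1, 2 and 5], against 5.73% and 5.23% of all genes. The glucocorticoid receptor co-chaperone Fkbp5 had 492 units in ES and 44.9, 41.4 and 33.5 in XEN (log2 difference -3.32 ± 0.29, adjusted p = 0.00518) and the small heat shock protein Hspb8 222 units in ES and 67, 78.4 and 66.7 in XEN (adjusted p = 0.0276). The others rose, among them the small heat shock protein Hspb2 with 179.6 units in ES and 497, 492 and 525 in XEN and the Hsp70 partner Bag2 with 234 units in ES and 607, 964 and 769.95 in XEN (adjusted p = 0.0267 and 0.0356). The call of Hspb8 was lost without IM8A1-I or IM8A1-II. The call of Hspb2 was lost without IM8A1-I or IM8A1-II and with each line counted once. The call of Bag2 was lost without IM8A1-I or IM8A1-II, with a floor at the limit and under another filter.

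Genes of ribosome assembly in the nucleolus lay below ES too. Of 40 tested ribosome biogenesis genes 30 lay below ES in all 3 arrays and 3 above, and the median was -0.68. In this list 3 fell (7.5%, near the 5.23% of all genes) [0, 1 and 7] and 0 rose (16 were lower and 0 higher at an unadjusted p under 0.05). Brix1, needed for the large subunit, had 1682 units in ES and 371, 598 and 436 in XEN (log2 difference -1.85 ± 0.34, adjusted p = 0.0296). Pes1, a member of the PeBoW complex, had 326 units in ES and 133, 119 and 105 in XEN and Nop10, a box H/ACA particle protein, 1893 units in ES and 517, 531 and 816 in XEN (adjusted p = 0.0355 and 0.0427). Of 50 tested translation factors 3 fell (6%, near the 5.23% of all genes) [1, 1 and 9] and 0 rose, with 28 below ES in all 3 arrays. These were Eif2s2, a subunit of the initiator factor eIF2, at 439 units in ES and 105, 82.6 and 74.6 in XEN (log2 difference -2.21 ± 0.30, adjusted p = 0.0137), Eif1ax, which scans with the small subunit, at 1013 units in ES and 202, 189 and 340.5 in XEN, and Eif2a, at 384 units in ES and 98.7, 133 and 128 in XEN (adjusted p = 0.0323 and 0.0296). A second probe set of Eif2s2 differed by 0.22, and one of Eif1ax by -1.81 (adjusted p = 0.125). The call of Brix1 was lost without IM8A1-I and with a floor at the limit. The calls of Pes1 and Eif1ax were lost without IM8A1-I or IM8A1-II, with each line counted once, with a floor at the limit and under another filter. The call of Nop10 was lost without IM8A1-I or IM8A1-II, with each line counted once, with a floor at the limit and under another filter or variance model. The call of Eif2a was lost without IM8A1-I or IM8A1-II and with a floor at the limit.

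Cytosolic ribosomal protein genes lay below ES in all 3 arrays in 19 of 29 tested cases, with 1 fall (3.45%) [1, 1 and 3], Rpl39l, a paralog of a large subunit protein, at 142 units in ES and 18.9, 13.6 and 16.7 in XEN (at least 5.21-fold lower, adjusted p = 0.0131). Of 21 tested tRNA synthetases 1 rose (4.76%, near the 5.73% of all genes) and 0 fell. In all 3 arrays 4 lay above ES and 8 below, and the median was -0.28. The gene that rose was Wars, which charges tryptophan. It had 379 units in ES and 2057, 1500.2 and 1549 in XEN (log2 difference 2.12 ± 0.30, adjusted p = 0.0145), while 2 other probe sets of it had adjusted p-values of 0.0803 and 0.0800. Of 65 tested splicing factors 40 lay below ES in all 3 arrays and 2 fell (3.08%, against 5.23% of all genes) [0, 0 and 4]. Hnrnpl, an RNA-binding splicing regulator, had 948 units in ES and 288, 281 and 289 in XEN (log2 difference -1.69 ± 0.25, adjusted p = 0.0174), and Sf3a3, a subunit of the branch point factor, had 635 units in ES and 167, 232 and 218 in XEN (adjusted p = 0.0316). The call of Hnrnpl was lost without IM8A1-I or IM8A1-II. The call of Sf3a3 was lost without IM8A1-I or IM8A1-II and with a floor at the limit.

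DNA replication genes lay below ES in all 3 arrays in 31 of 43 cases, with a median of -0.51. Of the 43 tested, 3 fell (6.98%) [0, 1 and 5] and 0 rose, a share of falls near the 5.23% of all genes. Rfc5, a clamp loader subunit, had 1144 units in ES and 424, 284 and 361 in XEN (log2 difference -1.67 ± 0.32, adjusted p = 0.0313), but its dim second probe set differed by 0.10. Pola1 and Prim1, the polymerase and the primase that start new strands, had 389.9 units in ES and 161, 131 and 135 in XEN for Pola1 (adjusted p = 0.0346) and 250.5 units in ES and 93.7, 115 and 97.4 in XEN for Prim1 (adjusted p = 0.0487). In the list of mitosis and the cell cycle 4 of 59 fell (6.78%) [2, 2 and 9] and 1 rose, and the share of falls was near the 5.23% of all genes. The 2 D-type cyclins of this list with calls went opposite ways, Ccnd1 at 279 units in ES and 28.5, 22.9 and 46.5 in XEN (log2 difference -2.79 ± 0.39, adjusted p = 0.0144) and Ccnd2 at 8.41 units in ES and 351, 248 and 156 in XEN, at least 8.74-fold higher (adjusted p = 0.0109). A second probe set of Ccnd1 did not pass (log2 difference -1.51). Cdkn1c, a cyclin-dependent kinase inhibitor, had 232 units in ES and 8.5, 12.9 and 11 in XEN (at least 8.52-fold lower, adjusted p = 0.00613), the mitotic activator Cdc20 1859 units in ES and 802, 683 and 549 in XEN and cyclin E1 (Ccne1, named to complete the count) 526 units in ES and 226, 222 and 212 in XEN (adjusted p = 0.0409 and 0.0413). The call of Rfc5 was lost without IM8A1-I or IM8A1-II and with a floor at the limit. The call of Pola1 was lost without IM8A1-I or IM8A1-II, with each line counted once and with a floor at the limit. The call of Prim1 was lost without IM8A1-I or IM8A1-II, with each line counted once, with a floor at the limit and under another offset, filter or variance model. The calls of Ccnd1 and Ccnd2 were lost with a floor at the limit. The call of Cdc20 was lost without IM8A1-I or IM8A1-II, with each line counted once, with a floor at the limit and under another filter or variance model. The call of Ccne1 was lost without IM8A1-I or IM8A1-II and with each line counted once.

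DNA repair genes fell in 5 of 49 cases (10.2%) [0, 1 and 10] and rose in 1 (2.04%) [0, 0 and 1], against 5.23% and 5.73% of all genes. In all 3 arrays 26 lay below ES. Parp1, which marks DNA breaks, had 675 units in ES and 153, 183 and 149.7 in XEN (log2 difference -2.0 ± 0.28, adjusted p = 0.0142), and Ung, which removes uracil, 839 units in ES and 155, 208 and 273 in XEN (log2 difference -1.97 ± 0.37, adjusted p = 0.0304). A second probe set of Ung differed by 0.29 and did not pass. The checkpoint kinase gene Chek2 had 479 units in ES and 150.3, 175 and 156 in XEN and the end-joining factor Xrcc6 279.5 units in ES and 83.6, 99.4 and 125 in XEN (adjusted p = 0.0258 and 0.0493). The call of Parp1 was lost without IM8A1-I. The call of Ung was lost without IM8A1-I or IM8A1-II, with each line counted once and with a floor at the limit. The call of Chek2 was lost without IM8A1-I or IM8A1-II and with each line counted once. The call of Xrcc6 was lost without IM8A1-I or IM8A1-II, with each line counted once, with a floor at the limit and under another offset, filter or variance model.

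Chromatin genes had falls and some rises, with Phc1 counted here although it is also a pluripotency marker. Of 58 tested, 11 fell (19.0%) [3, 4 and 13] and 3 rose (5.17%) [2, 2 and 3], against 5.23% and 5.73% of all genes. In all 3 arrays 34 lay below ES, and the median was -0.51. Without a filter on dim probe sets 6 fell, as many as with values raised to the limit. Jarid2, a partner of Polycomb complex PRC2, had 2734 units in ES and 192, 293 and 206 in XEN (log2 difference -3.53 ± 0.33, adjusted p = 0.00594), and Eed, a core subunit of it, 768 units in ES and 188, 209 and 227 in XEN (log2 difference -1.84 ± 0.27, adjusted p = 0.0166). Phc1, a PRC1 subunit, had 1296 units in ES and 243, 174 and 147 in XEN (log2 difference -2.75 ± 0.35, adjusted p = 0.0115), while Bmi1, also of PRC1, rose, at 38.5 units in ES and 237, 155 and 173 in XEN (log2 difference 2.0 ± 0.33, adjusted p = 0.0224). The deacetylase gene Hdac1 and the corepressor gene Trim28 had 383 units in ES and 118, 136 and 119 in XEN for Hdac1 (adjusted p = 0.0249) and 7097 units in ES and 2696, 2062 and 2811 in XEN for Trim28 (adjusted p = 0.0311), and the linker histone gene H1f10 225 units in ES and 48.5, 13.2 and 10.2 in XEN (adjusted p = 0.0427). Of the remodelling ATPases, Smarca2 (BRM) rose from under the limit, at 0.4 units in ES and 185, 264 and 167 in XEN (at least 7.37-fold higher, adjusted p = 0.00381), and the chromatin protein gene Hmgb3 rose, at 504 units in ES and 1496, 1958 and 2028 in XEN (adjusted p = 0.0207). Eed, Phc1, Hdac1, Trim28 and Hmgb3 were named after their values were seen. The calls of Eed and Hdac1 were lost without IM8A1-I or IM8A1-II. The call of Phc1 was lost with a floor at the limit. The call of Bmi1 was lost without IM8A1-I and with a floor at the limit. The call of Trim28 was lost without IM8A1-I, with a floor at the limit and under another filter. The call of H1f10 was lost without IM8A1-II, with a floor at the limit and under another offset or filter. The call of Hmgb3 was lost without IM8A1-II and with a floor at the limit. Of 13 tested germline genes 2 fell (15.4%) [1, 1 and 3]. Among them was the meiotic cohesin gene Stag3, at 63.2 units in ES and 3.1, 4.6 and 3.7 in XEN (adjusted p = 0.0246). The call of Stag3 was lost without IM8A1-I or IM8A1-II and with the offset of the 5th percentile.

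Genes of nucleotide synthesis lay mostly below ES. Of 28 tested genes 6 fell (21.4%) [1, 3 and 10] and 0 rose, against 5.23% and 5.73% of all genes. In all 3 arrays 17 lay below ES and 4 above, and the median was -0.78 (-0.62 with dim members set at their bounds). Prps1 makes the ribose phosphate donor and had 1578 units in ES and 474, 417 and 506 in XEN (log2 difference -1.74 ± 0.27, adjusted p = 0.0183). Gart carries out several steps of purine ring assembly, at 1759.6 units in ES and 567, 604 and 495 in XEN (log2 difference -1.65 ± 0.27, adjusted p = 0.0214), and Adsl catalyses a later step of it, at 604 units in ES and 223, 211 and 254 in XEN (adjusted p = 0.0346). Hprt and Pnp belong to purine salvage, at 1421 units in ES and 425, 352 and 495 in XEN for Hprt (adjusted p = 0.0249) and 1195 units in ES and 339, 353 and 405 in XEN for Pnp (adjusted p = 0.0205). Ak1, an adenylate kinase, had 222 units in ES and 6.3, 5.5 and 18.5 in XEN and was at least 8.15-fold lower (adjusted p = 0.0125). Hprt and Adsl were named to complete the count. The calls of Prps1 and Gart were lost without IM8A1-I. The call of Adsl was lost without IM8A1-I or IM8A1-II and with each line counted once. The call of Hprt was lost without IM8A1-I or IM8A1-II and with a floor at the limit. The call of Pnp was lost without IM8A1-I or IM8A1-II.

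Glycolysis had a median of -0.63 over 19 tested genes, with 14 below ES in all 3 arrays. Of the 19, 4 fell (21.1%) [3, 4 and 5] and 1 rose (5.26%) [0, 1 and 2], against 5.23% and 5.73% of all genes. Pfkp, the platelet form of phosphofructokinase, had 438 units in ES and 15.3, 3.4 and 2.0 in XEN (at least 16-fold lower, adjusted p = 0.00780), and its second probe set fell too. Pdk1, which switches off pyruvate dehydrogenase, had 757 units in ES and 89.3, 121 and 78.3 in XEN (log2 difference -2.87 ± 0.32, adjusted p = 0.00889), and the lactate dehydrogenase gene Ldhb 601 units in ES and 49.6, 70.7 and 100.2 in XEN (log2 difference -2.91 ± 0.40, adjusted p = 0.0136). Aldoa, an aldolase abundant in both cell types, had 4505 units in ES and 1678, 1805 and 1693 in XEN (log2 difference -1.38 ± 0.24, adjusted p = 0.0249). The gene that rose was Slc2a3, a glucose transporter named to complete the count, at 2979 units in ES and 6387, 8295 and 7131 in XEN (log2 difference 1.28 ± 0.26, adjusted p = 0.0358). The call of Ldhb was lost with a floor at the limit. The call of Aldoa was lost without IM8A1-I. The call of Slc2a3 was lost without IM8A1-I, with a floor at the limit and under another filter or variance model.

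Mitochondrial energy genes showed no call with all 3 XEN arrays. Among 61 tested genes of the respiratory chain and ATP synthase 0 passed, and the falls with an array left out were [0, 0 and 3] (without adjustment, 1 was higher and 4 lower at p under 0.05), none lay 2-fold from ES in all 3 arrays, and the median was -0.14. The smallest p was that of Ndufaf4, an assembly factor, at 95.7 units in ES and 47.6, 26.5 and 25.2 in XEN (log2 difference -1.32 ± 0.40, adjusted p = 0.0898). Among 24 tested genes of the tricarboxylic acid cycle 0 passed, with falls of [0, 0 and 1] (without adjustment, 0 higher and 2 lower at p under 0.05), with Sdhb, a succinate dehydrogenase subunit, nearest at 813 units in ES and 433, 446 and 386 in XEN (log2 difference -0.93 ± 0.26, adjusted p = 0.0787).

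Cholesterol genes were lowest in IM8A1-I. The list median was -0.75, but the arrays had -1.79 (IM8A1-I), -0.27 (IM8A1-II) and -0.21 (XEN1-3), and it was -0.13 in the fit without IM8A1-I. Of 17 tested genes 0 passed (without adjustment, 0 higher and 1 lower at p under 0.05). Idi1, the isopentenyl isomerase, was low in every XEN array, at 952 units in ES and 31.2, 231 and 171 in XEN, and did not pass (log2 difference -2.98 ± 0.96, adjusted p = 0.106). It passed without IM8A1-I (adjusted p = 0.0455) and with each line counted once (adjusted p = 0.0321), both by limma, and its adjusted p was 0.0321 to 0.291 over all alternatives. Fdps, which makes farnesyl diphosphate, had 1585 units in ES and 125, 818 and 659.8 in XEN (adjusted p = 0.261), and Sqle, an epoxidase, 838 units in ES and 201, 811 and 725 in XEN (adjusted p = 0.561), both named after their values were seen, with only IM8A1-I far from ES in Sqle. Srebf1, a regulator of lipid genes named in the same way, had 349 units in ES and 499, 479 and 533 in XEN and did not pass (adjusted p = 0.245). IM8A1-I and XEN1-3 had the same labelled medium, while IM8A1-II had RPMI 1640 with serum. The part of medium, line or single culture in these values was not tested.

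Redox genes had more falls than rises. Of 42 tested genes 6 fell (14.3%) [1, 4 and 13] and 1 rose (2.38%) [1, 1 and 2], against 5.23% and 5.73% of all genes. In all 3 arrays 24 lay below ES, and the median was -0.55. Without a filter on dim probe sets 2 fell and with values raised to the limit 3. Gpx3, the secreted glutathione peroxidase, rose, at 154 units in ES and 2115, 3157 and 4034 in XEN (log2 difference 4.20 ± 0.40, adjusted p = 0.00594). The metallothionein gene Mt2 had 3864 units in ES and 437, 518 and 148 in XEN (log2 difference -3.53 ± 0.69, adjusted p = 0.0333), and the glutathione transferase genes Gstt2 and Gstt1 152 units in ES and 19, 10 and 13.6 in XEN for Gstt2 (adjusted p = 0.0134) and 59.2 units in ES and 5.6, 9.1 and 6.0 in XEN for Gstt1 (adjusted p = 0.0344). Taldo1, the transaldolase of the pentose phosphate route, named after its values were seen, had 597 units in ES and 102, 188 and 175 in XEN (adjusted p = 0.0393). The call of Mt2 was lost without IM8A1-I, with a floor at the limit and under another filter. The call of Gstt1 was lost without IM8A1-I or IM8A1-II, with each line counted once and under another offset. The call of Taldo1 was lost without IM8A1-I or IM8A1-II, with a floor at the limit and under another filter.

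Among genes of lipid, amino acid and iron handling, the calls made came at shares near those of all genes (5.23% fell and 5.73% rose). Of 33 tested fatty acid genes 2 fell (6.06%) [1, 1 and 3] and 0 rose. They were Cpt1a, the entry enzyme of mitochondrial fatty acid oxidation and one of the largest falls, and the elongase gene Elovl6, at 306 units in ES and 49.9, 62 and 102 in XEN (log2 difference -2.01 ± 0.41, adjusted p = 0.0366). Of 20 amino acid and one-carbon genes 1 fell (5%) [0, 0 and 3], the glutamate dehydrogenase gene Glud1, at 667 units in ES and 213, 236 and 296 in XEN (adjusted p = 0.0419), and of 13 iron and heme genes 1 rose (7.69%) [0, 0 and 1], the iron transporter gene Slc11a2, at 61.8 units in ES and 189, 185 and 177 in XEN (adjusted p = 0.0290), whose second probe set differed by 0.60 and did not pass. The call of Elovl6 was lost without IM8A1-I or IM8A1-II, with each line counted once, with a floor at the limit and under another filter. The call of Glud1 was lost without IM8A1-I or IM8A1-II, with each line counted once, with a floor at the limit and under another filter or variance model. The call of Slc11a2 was lost without IM8A1-I or IM8A1-II and with each line counted once.

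The share of actin genes that rose was near that of all genes. Of 51 tested 4 rose (7.84%) [1, 1 and 6] and 0 fell [0, 0 and 3], against 5.73% and 5.23% of all genes, and the median was 0.03, as over all genes. Tpm4, a tropomyosin, had 962 units in ES and 3816, 3748 and 3758 in XEN, nearly equal in the 3 XEN arrays (log2 difference 1.96 ± 0.23, adjusted p = 0.0101). Gsn, which severs filaments, had 130 units in ES and 497, 564 and 922 in XEN (log2 difference 2.21 ± 0.40, adjusted p = 0.0291), the bundling protein gene Lcp1 15.1 units in ES and 58.9, 81.6 and 71 in XEN and Actb, cytoplasmic actin, 302 units in ES and 914, 635 and 866 in XEN (adjusted p = 0.0321 and 0.0497). A second probe set of Actb did not pass (0.67). Of 17 annexin and S100 genes 3 rose and 0 fell: S100a1, a calcium sensor, at 38 units in ES and 534, 497 and 499.5 in XEN (log2 difference 3.42 ± 0.26, adjusted p = 0.00321), Anxa2, which binds membranes and actin, at 436 units in ES and 2211, 2579.6 and 2838 in XEN (log2 difference 2.51 ± 0.27, adjusted p = 0.00807), and Anxa4 at 99.5 units in ES and 309, 448 and 517 in XEN (adjusted p = 0.0296). The call of Gsn was lost without IM8A1-I or IM8A1-II and with a floor at the limit. The call of Lcp1 was lost without IM8A1-I or IM8A1-II, with a floor at the limit and under another filter. The call of Actb was lost without IM8A1-I or IM8A1-II, with each line counted once, with a floor at the limit and under another offset, filter, scaling or variance model. The call of Anxa4 was lost without IM8A1-II and with a floor at the limit.

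Microtubule genes fell in 4 of 30 cases (13.3%) and rose in 0, against 5.23% and 5.73% of all genes. In all 3 arrays 13 of the 30 lay below ES (43.3%) and 10 above (33.3%), against 35.3% and 37.8% of all genes. The median was -0.27. Stmn1 and Stmn2 destabilise microtubules. Stmn1 had 3563 units in ES and 426, 637 and 379 in XEN (log2 difference -2.90 ± 0.36, adjusted p = 0.0109) and Stmn2 400.3 units in ES and 51.9, 59.1 and 48.4 in XEN (log2 difference -2.69 ± 0.28, adjusted p = 0.00723). Crmp1, a tubulin-binding protein of neurons, had 153 units in ES and 3.9, 11.3 and 5.7 in XEN and was at least 5.61-fold lower (adjusted p = 0.0115), and the kinesin adaptor gene Kifap3 had 279 units in ES and 104, 105 and 111 in XEN (adjusted p = 0.0350). The call of Stmn1 was lost with a floor at the limit. The call of Kifap3 was lost without IM8A1-I or IM8A1-II, with each line counted once and under another filter.

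Among genes of cell attachment, those called in the matrix list rose and those called in the junction list fell. The shares were 12.9% and 16.7%, against 5.73% and 5.23% of all genes. Of 31 integrin and focal adhesion genes 4 rose [0, 1 and 6] and 0 fell. Itga5 and Itgav, subunits of fibronectin and vitronectin receptors, had 26.9 units in ES and 132, 109 and 111 in XEN for Itga5 (at least 4.28-fold higher, adjusted p = 0.0207) and 596 units in ES and 1416, 1856 and 1644 in XEN for Itgav (log2 difference 1.44 ± 0.28, adjusted p = 0.0323). Other probe sets of Itgav differed by 1.11 and 1.47 and did not pass (adjusted p = 0.0570 and 0.0576). The tetraspanin Cd9 had 913 units in ES and 2340.2, 2521 and 2354 in XEN and the adhesion adaptor Fhl2 65 units in ES and 269, 684 and 344 in XEN (adjusted p = 0.0251 and 0.0430). Of 24 epithelial junction genes 4 fell and 0 rose: the claudins Cldn4, at 350.2 units in ES and 20.6, 6.4 and 25.8 in XEN, and Cldn7, at 114 units in ES and 1.6, 0.8 and 1.8 in XEN, the membrane protease inhibitor Spint1, at 245 units in ES and 4.0, 14.2 and 6.4 in XEN, and the adhesion molecule Epcam, at 151 units in ES and 14.5, 28.8 and 26.3 in XEN (adjusted p = 0.0131, 0.0103, 0.00876 and 0.0234). Cldn4, Cldn7 and Spint1 were under the limit in every XEN array (at least 12.8-fold, 4.17-fold and 8.99-fold lower). They were tested only because of their ES signal, so they could only fall. Itga5 was tested only because of its XEN signal. The calls of Itga5 and Cd9 were lost without IM8A1-I or IM8A1-II. The call of Itgav was lost without IM8A1-I or IM8A1-II and with a floor at the limit. The call of Fhl2 was lost without IM8A1-I, with a floor at the limit and under another offset or filter.

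The list of MHC class I and interferon response genes had calls in both directions. Of 30 tested, 5 rose (16.7%) [1, 2 and 6] and 7 fell (23.3%) [5, 5 and 7], against 5.73% and 5.23% of all genes. In all 3 arrays 12 lay above ES and 12 below, and the median was -0.17. The genes named here are not all of those called. With values raised to the limit 1 rose. B2m, the MHC class I light chain, had 193 units in ES and 1453, 2069 and 2109 in XEN (log2 difference 3.20 ± 0.32, adjusted p = 0.00676), and H2-D1, a heavy chain, 163 units in ES and 612, 1146 and 527 in XEN (log2 difference 2.07 ± 0.47, adjusted p = 0.0492). Other probe sets of H2-D1 differed by 1.16 and 0.60 (adjusted p = 0.249 and 0.621) and did not pass. The XEN lines are of different strains and the labels name none for the ES cells, and the part of strain in these values was not tested. Ifitm3, which blocks virus entry, had 1562 units in ES and 121, 112 and 24.8 in XEN (log2 difference -4.25 ± 0.77, adjusted p = 0.0281), the GTPase gene Gbp2 166 units in ES and 3.2, 5.5 and 5.3 in XEN (at least 6.09-fold lower, adjusted p = 0.00780), and the transcription factor gene Irf1 221 units in ES and 22.6, 8.5 and 5.7 in XEN (at least 8.09-fold lower, adjusted p = 0.0155). H2-D1 and Irf1 were named after their values were seen. The call of H2-D1 was lost without IM8A1-I or IM8A1-II, with each line counted once, with a floor at the limit and under another offset, filter, scaling or variance model. The call of Ifitm3 was lost with a floor at the limit and under another filter.

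Genes of complement, coagulation and plasminogen rose more often than they fell (27.3% and 0%, against 5.73% and 5.23% of all genes). Extracellular proteases and inhibitors had calls in both directions (15% rose and 10% fell). With no array left out, the alternatives gave 2 to 7 rises and 3 to 5 falls among the proteases and inhibitors. Of 22 tested complement, coagulation and plasminogen genes 6 rose and 0 fell, with a median of 0.98, but 3 of the 6 (F3, Plat and Thbd) are also endoderm markers and the median was 0.29 in the alternative where it was lowest. The others were Procr, the protein C receptor, at 31.9 units in ES and 451, 404 and 501 in XEN (log2 difference 3.44 ± 0.28, adjusted p = 0.00380), Plaur, the urokinase receptor, at 43.2 units in ES and 235, 238 and 246 in XEN (log2 difference 2.22 ± 0.26, adjusted p = 0.00945), and Cd59a, a complement inhibitor, at 40.7 units in ES and 228, 238 and 122 in XEN (log2 difference 1.96 ± 0.43, adjusted p = 0.0448). Of 40 extracellular proteases and inhibitors 6 rose [3, 4 and 7] and 4 fell [2, 3 and 4], among the latter Wfdc2, a secreted inhibitor, at 141 units in ES and 3.2, 5.2 and 5.0 in XEN (at least 5.17-fold lower, adjusted p = 0.00884). The call of Cd59a was lost without IM8A1-I or IM8A1-II, with each line counted once, with a floor at the limit and under another offset, filter, scaling or variance model.

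Signalling lists mostly had calls in both directions. In the Wnt list 4 of 41 rose (9.76%) [1, 1 and 4] and 1 fell (2.44%) [0, 1 and 4], against 5.73% and 5.23% of all genes. In all 3 arrays 15 lay above ES and 16 below, and the median was 0.02, near that of all genes. Wnt11, a ligand, had 1.3 units in ES and 103, 65.2 and 153 in XEN (at least 3.7-fold higher, adjusted p = 0.0158), the secreted antagonist Frzb 3.7 units in ES and 179.9, 144 and 939 in XEN (at least 10.6-fold higher, adjusted p = 0.0492), with XEN1-3 well above the IM8A1 cultures, and Tcf7l2, a nuclear effector, 105 units in ES and 352, 335 and 344 in XEN (log2 difference 1.62 ± 0.26, adjusted p = 0.0206). A dim second probe set of Tcf7l2 differed by 1.01 and did not pass (adjusted p = 0.116). The corepressor gene Tle4 fell, at 171 units in ES and 27.7, 46.6 and 35.3 in XEN (adjusted p = 0.0251). In the Notch list 3 of 18 fell (16.7%) [1, 1 and 3] and 1 rose (5.56%), with 7 below ES in all 3 arrays and 5 above. The ligand gene Jag2 had 64.7 units in ES and 2.7, 3.2 and 4.3 in XEN, the nuclear effector Rbpj 295 units in ES and 68.7, 69.2 and 80.3 in XEN and the ubiquitin ligase gene Dtx1 208 units in ES and 58, 38.4 and 60.9 in XEN (adjusted p = 0.0234, 0.0158 and 0.0297), against Adam10, the protease that cleaves Notch and other receptors, at 59.5 units in ES and 536, 579 and 586 in XEN (log2 difference 3.04 ± 0.26, adjusted p = 0.00478). The call of Wnt11 was lost with a floor at the limit. The call of Frzb was lost without IM8A1-I or IM8A1-II, with each line counted once, with a floor at the limit and under another offset, filter, scaling or variance model. The call of Tcf7l2 was lost without IM8A1-I or IM8A1-II. The call of Tle4 was lost without IM8A1-I, with a floor at the limit and under another filter. The call of Jag2 was lost without IM8A1-I or IM8A1-II and under another offset. The call of Rbpj was lost without IM8A1-I. The call of Dtx1 was lost without IM8A1-I or IM8A1-II, with a floor at the limit and under another filter.

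Axon guidance genes had calls in both directions. Of 31 tested 5 rose (16.1%) [0, 2 and 7] and 3 fell (9.68%) [2, 2 and 4], against 5.73% and 5.23% of all genes. The semaphorin genes Sema4d and Sema3e fell, at 269 units in ES and 8.1, 19.4 and 14.7 in XEN for Sema4d (at least 9.85-fold lower, adjusted p = 0.00853) and 111 units in ES and 7.0, 9.6 and 3.2 in XEN for Sema3e (at least 4.06-fold lower, adjusted p = 0.0158), and the receptor gene Ephb3 and the ligand gene Efna4 rose, at 87.7 units in ES and 1053, 399 and 909.5 in XEN for Ephb3 (adjusted p = 0.0329) and 13.9 units in ES and 82.9, 98.6 and 70.7 in XEN for Efna4 (adjusted p = 0.0214). Of 22 immediate early genes 2 rose [1, 1 and 5]: Ccn2, a matricellular protein, at 251 units in ES and 2707, 7057 and 4463 in XEN (log2 difference 4.07 ± 0.53, adjusted p = 0.0122), and the antiproliferative gene Btg1, at 217 units in ES and 731, 600.2 and 1043 in XEN (adjusted p = 0.0393). Of 30 apoptosis genes 1 rose [0, 0 and 1], Tradd, a death receptor adaptor, at 109 units in ES and 429.96, 274 and 378 in XEN, and 2 fell [0, 1 and 3], the anti-apoptotic Mcl1, at 958 units in ES and 336, 332 and 311 in XEN, and the pro-apoptotic Bcl2l11, at 222 units in ES and 62.1, 66.4 and 38.9 in XEN (adjusted p = 0.0406, 0.0234 and 0.0327). A dim probe set of Bcl2l11 differed by 0.44 and did not pass. The shares of apoptosis genes that rose (3.33%) and fell (6.67%) were near those of all genes. Of the immediate early genes 9.09% rose and 0% fell. In 37 MAP kinase regulators 0 passed (without adjustment, 3 higher and 4 lower at p under 0.05), the nearest being the p38 kinase gene Mapk12, at 125 units in ES and 62, 62.1 and 46 in XEN (log2 difference -1.02 ± 0.31, adjusted p = 0.0899). The call of Ephb3 was lost without IM8A1-I, with a floor at the limit and under another filter. The call of Efna4 was lost without IM8A1-I or IM8A1-II and with a floor at the limit. The call of Ccn2 was lost with a floor at the limit. The call of Btg1 was lost without IM8A1-I or IM8A1-II, with each line counted once, with a floor at the limit and under another filter. The call of Tradd was lost without IM8A1-I or IM8A1-II, with a floor at the limit and under another filter or scaling. The call of Mcl1 was lost without IM8A1-I or IM8A1-II. The call of Bcl2l11 was lost without IM8A1-I or IM8A1-II, with a floor at the limit and under another filter.

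Of 39 neuronal genes on the array 20 were tested, and 5 fell (25%) [1, 2 and 5] and 0 rose, against 5.23% and 5.73% of all genes. Gad1, Nefh and Ina were under the limit in every XEN array. They were tested only because of their ES signal, so they could only fall. Gad1, which makes GABA, had 97 units in ES and 1.8, 0.9 and 6.2 in XEN (at least 3.55-fold lower, adjusted p = 0.0166), and the neurofilament gene Nefh 82.3 units in ES and 16.2, 18 and 18.9 in XEN and the ubiquitin hydrolase gene Uchl1 268 units in ES and 41.1, 49.4 and 10.7 in XEN (adjusted p = 0.0320 and 0.0457). Ina is described with the largest falls. The call of Gad1 was lost without IM8A1-I. The call of Nefh was lost without IM8A1-I or IM8A1-II and with each line counted once. The call of Uchl1 was lost without IM8A1-I or IM8A1-II, with each line counted once, with a floor at the limit and under another offset or filter.

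The 12 largest rises outside the lineage lists, chosen by the log2 difference of the XEN array nearest to ES, included secreted, membrane and regulatory products. In 10 of the 12 ES was under the limit, so their choice rests in part on the offset and they have no measured order. Hs3st1, a heparan sulfate sulfotransferase, had 0.901 units in ES and 1547, 964 and 1206 in XEN (at least 44.6-fold higher, adjusted p = 0.00174). Srgn, a proteoglycan of secretory granules, had 1.5 units in ES and 753, 372 and 688 in XEN, at least 21.2-fold higher (adjusted p = 0.00380). Epas1, the hypoxia-inducible factor HIF-2alpha, had 18.3 units in ES and 753, 841 and 851 in XEN, almost the same in all 3 cultures (at least 29.8-fold higher, adjusted p = 0.00174). Ctsh, a lysosomal cathepsin, had 3.3 units in ES and 291, 1130.1 and 1026 in XEN (adjusted p = 0.0136), with IM8A1-I the lowest. Serpinh1 had 221 units in ES and 4842, 4162 and 4289.6 in XEN (log2 difference 4.26 ± 0.25, adjusted p = 0.00181). Myl3, a myosin light chain, had 2.0 units in ES and 255, 389 and 779 in XEN (at least 15.6-fold higher, adjusted p = 0.00945), and Ankrd1, a nuclear and sarcomere protein, 9.21 units in ES and 389, 1152 and 450.4 in XEN (at least 21.5-fold higher, adjusted p = 0.0115). Fxyd3, a regulator of the sodium pump, and Aqp8, a water channel, had 3.3 units in ES and 245, 382 and 495 in XEN for Fxyd3 (adjusted p = 0.00550) and 34.4 units in ES and 1744, 839 and 766 in XEN for Aqp8 (adjusted p = 0.00875). Enpep, the aminopeptidase that cleaves angiotensin, had 13.9 units in ES and 427, 404 and 728 in XEN (at least 18.3-fold higher, adjusted p = 0.00586), but its second probe set differed by 0.63 and did not pass. Emp2, a membrane protein, had 10 units in ES and 306, 336 and 386 in XEN (at least 12.5-fold higher, adjusted p = 0.00259). Smarca2 completes the 12. The calls of Ctsh, Myl3, Ankrd1, Fxyd3 and Aqp8 were lost with a floor at the limit.

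The 12 largest falls, chosen in the same way, included metabolic enzymes and surface proteins. In 7 of them every XEN array was under the limit, and these have no measured order. Ly6e, a surface antigen, had 1223 units in ES and 15.3, 17.5 and 17.8 in XEN (at least 44.8-fold lower, adjusted p = 0.00174), though a dim second probe set differed by -0.15. Ina, a neuronal intermediate filament, had 633 units in ES and 2.3, 2.8 and 9.0 in XEN (at least 23.2-fold lower, adjusted p = 0.00301). Cpt1a had 384 units in ES and 3.9, 4.4 and 5.4 in XEN (at least 14.1-fold lower, adjusted p = 0.00296). Igfbp2, which binds insulin-like growth factors, had 2366 units in ES and 39.9, 104 and 28.9 in XEN (log2 difference -5.28 ± 0.61, adjusted p = 0.00918), and Tcea3, a transcription elongation factor, 383 units in ES and 1.9, 11.4 and 5.4 in XEN (at least 14.1-fold lower, adjusted p = 0.00594). Sfn, the 14-3-3 sigma protein, had 450.3 units in ES and 16.2, 6.1 and 9.0 in XEN (at least 16.5-fold lower, adjusted p = 0.00500), and Aass, the first enzyme of lysine breakdown, 803 units in ES and 25.9, 39.5 and 23.2 in XEN (log2 difference -4.37 ± 0.34, adjusted p = 0.00351). Mtm1, a phosphoinositide phosphatase, had 6546 units in ES and 152, 127 and 398 in XEN (adjusted p = 0.0115), while its dimmer probe set differed by -0.52 and did not pass. Slc38a4, an amino acid transporter, had 636 units in ES and 26, 13.4 and 30.2 in XEN, Chchd10, a mitochondrial protein, 3386 units in ES and 214, 184 and 104 in XEN, and Calml4, a calmodulin-like protein, 294 units in ES and 4.3, 13 and 5.2 in XEN (adjusted p = 0.00565, 0.00676 and 0.00683). Pfkp completes the 12. The calls of Igfbp2 and Mtm1 were lost with a floor at the limit.

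**Figure D4:**
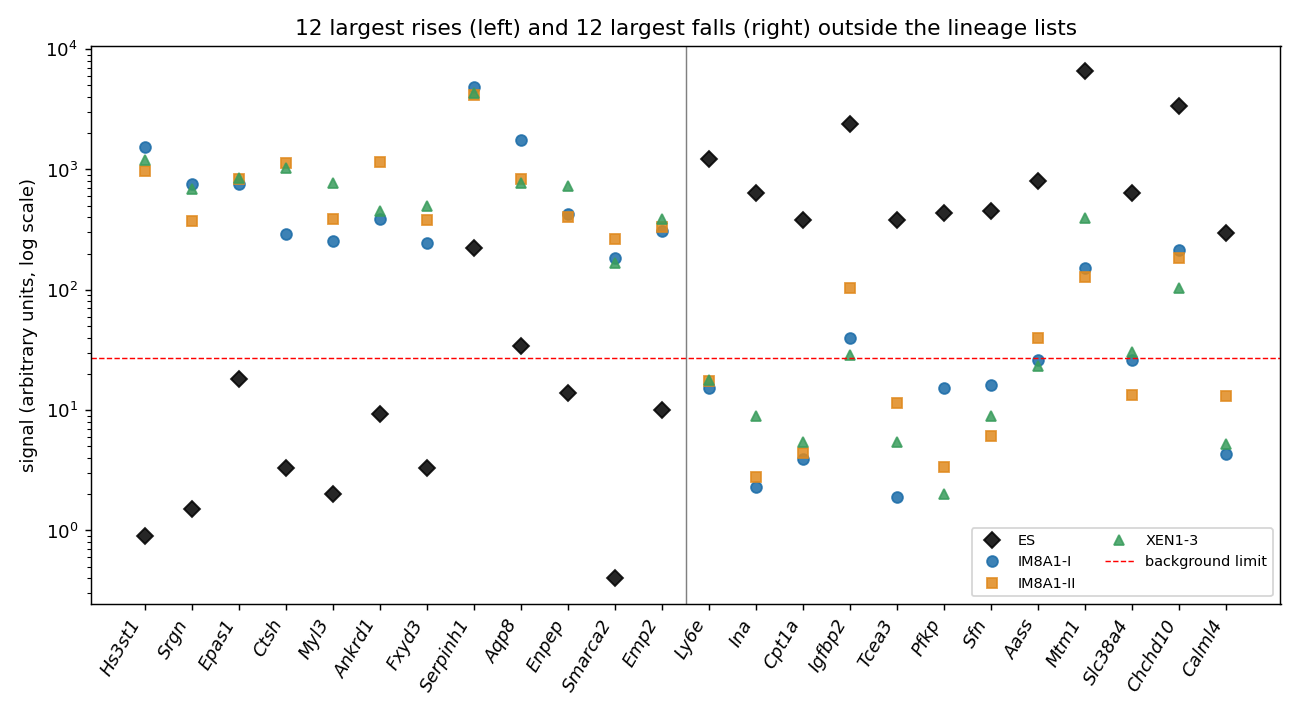
Signal on a log scale, in arbitrary units, of the 12 largest rises (left) and the 12 largest falls (right) outside the lineage lists, 1 point per array, with the background limit of 27.3 units as a dashed line. The 3 XEN arrays lie on the same side of ES in every gene.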

How the data were processed

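The deposited series table holds linear intensity values, 1 for each probe set of each array. How probes were summarised is not given in the sources used. Run records were read, per the file headers, for chip type, lot, fluidics messages and the sample description only. Of 12488 probe sets, 66 controls were left out. The 2% trimmed means of 149.06 to 149.22 units show that the deposited intensities were already scaled, and rescaling used factors of 1.00. An offset of 10.5 units (the 25th percentile) was added before log2. The 8583 probe sets with an array at or above 27.3 units (the 40th percentile) were fitted with limma (version 3.58.1, R 4.3.3; lmFit, then eBayes with trend, 2 residual and 3.76 prior degrees of freedom), two-sided, with Benjamini-Hochberg adjustment, after a check on simulated data. The annotation gave 1 symbol to 10833 probe sets, several to 396 and none to 1193, and 10817 of the first were found by gene ID in RefSeq GRCm38.p6. Each gene was represented by its probe set of highest mean log2 signal, and dim members outside the filter were not tested. Named genes are the 12 largest rises and the 12 largest falls outside the lineage lists (called, at least 84.7 units on an array, ranked by the offset log2 difference of the XEN array nearest to ES), up to 4 called members per list lying 2-fold from ES in all 3 arrays (or the smallest p), and 6 lineage checks. Others are said to complete a count or to have been named after their values were seen. The members, lists and motifs were chosen with earlier results of these data known. Alternatives changed the offset, dim values, filter, scaling, variance trend, probe set per gene and XEN arrays. Figures used matplotlib 3.10.9.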

Additional observations from a re-analysis of the deposited data

Results flagged for a closer look

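For 5 genes the 2 XEN lines lay on opposite sides of ES, at least 2-fold above it in both IM8A1 cultures and at least 2-fold below it in XEN1-3. The difference between the lines was not tested, since XEN1-3 is a single array, whose run record holds a fluidics message. Log2 differences here include the offset, and XEN1-3 was under the limit for Fabp3, Smoc1 and Mdfic, so those sizes depend on it. Fabp3, a fatty acid binding protein, stood at 712 units in ES and 2496, 1999.8 and 16.6 in XEN, and the IM8A1 mean exceeded XEN1-3 by 6.37 on the log2 scale. Smoc1, a matrix protein, had 117 units in ES and 283, 519.6 and 15.3 in XEN (3.93), and Mdfic 34.2 units in ES and 222, 142 and 4.5 in XEN (3.65). Smpd1, the acid sphingomyelinase of the lysosome, had 129.8 units in ES and 429, 306 and 38.5 in XEN (2.93), and Spg21 125 units in ES and 278, 276 and 56.8 in XEN (2.10). Smpd1 is a member of the hydrolase list, where it was not called.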

How the results depend on the processing

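The counts of calls depended on the arrays used. With 1 XEN array left out 190 to 784 probe sets rose and 179 to 716 fell, and 799 to 906 were at least 2-fold above ES and 753 to 855 below it in all arrays left. With values raised to the limit 238 rose. With the offset of the 50th percentile 383 were at least 2-fold higher and 420 lower in all 3. The number of function lists with a median of at least 0.5 in size was 12 to 21 over the alternatives, and none of the 17 changed sign. Of 175 named calls, 96 held in all 7 processing alternatives, 87 in all 4 replicate alternatives and 67 in all 11, and none reversed. No paired analysis was possible because ES has 1 array and the labels give the groups no shared replicate numbers. Of the named calls 85 were lost without IM8A1-I, 70 without IM8A1-II and 1 without XEN1-3. Signals near the background limit set the lower end of what could be measured, and 72 calls were lost with values raised to it.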

Other observations

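Transport across membranes was not described above. Of 102 tested solute carriers, 10 rose (9.80%) [2, 6 and 16] and 4 fell (3.92%) [3, 3 and 6], against 5.73% and 5.23% of all genes. In all 3 XEN arrays 58 lay above ES and 21 below, and the median was 0.40 (0.28 with dim members set at their bounds). With values raised to the limit 3 rose. Slc16a1, a lactate transporter, stood at 33 units in ES and 253, 604 and 284 in XEN (log2 difference 3.06 ± 0.52, adjusted p = 0.0240). Slc30a4, a zinc transporter, and Slc26a2, a sulfate transporter, both named after their values were seen, had 28.4 units in ES and 239, 149 and 244 in XEN for Slc30a4 (adjusted p = 0.0171) and 7.21 units in ES and 62.5, 56 and 81.2 in XEN for Slc26a2 (adjusted p = 0.0206). The arginine transporter Slc7a3 fell, at 339 units in ES and 19.9, 10.8 and 11 in XEN (at least 12.4-fold lower, adjusted p = 0.00594), as did Slc27a2, a fatty acid transporter, at 86.4 units in ES and 1.5, 1.1 and 2.5 in XEN (at least 3.16-fold lower, adjusted p = 0.0144). The calls of Slc16a1 and Slc30a4 were lost with a floor at the limit. The call of Slc26a2 was lost without IM8A1-I and with a floor at the limit.

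Of 118 ion channel and pump genes on the array 51 were tested, and 4 rose (7.84%) [1, 2 and 5] and 0 fell, a share of rises near the 5.73% of all genes, and the median of 0.31 was 0.05 with dim members set at their bounds. Clcn5, a chloride and proton exchanger of endosomes, had 170.4 units in ES and 614, 571 and 809.6 in XEN (log2 difference 1.88 ± 0.31, adjusted p = 0.0222), its relative Clcn4 19.3 units in ES and 62.7, 72.8 and 77.3 in XEN and the potassium channel Kcnn4 21.6 units in ES and 84.2, 103 and 67.4 in XEN (adjusted p = 0.0377 and 0.0419). Second, dim probe sets of Clcn5 (0.69, adjusted p = 0.283) and Clcn4 (1.47, adjusted p = 0.0592) did not pass. The fourth was Aqp8. The call of Clcn5 was lost without IM8A1-I and with a floor at the limit. The call of Clcn4 was lost without IM8A1-I or IM8A1-II, with each line counted once, with a floor at the limit and under another filter. The call of Kcnn4 was lost without IM8A1-I or IM8A1-II, with each line counted once, with a floor at the limit and under another offset or filter.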
